A study of Mus musculus with 12 samples.

Results

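Potassium channel genes were taken as every row of the count table whose Ensembl identifier maps to a protein-coding mouse symbol beginning with Kcn, plus Abcc8 and Abcc9, which encode the sulfonylurea receptors of the ATP-sensitive channel. The rule found 95 genes among the 53700 rows of the table, and the noncoding Kcnq1ot1 was left out. Whole-heart RNA from 12 male mice was sequenced to ask what the loss of CYB5R3, a reductase of cytochrome b5 and heme iron, does to the adult heart. The 6 ac-WT mice carried unfloxed Cyb5r3 and Myh6-CreERT2, and the 6 ac-CYB5R3-KO mice carried floxed Cyb5r3 alleles and the same Cre. Both groups received tamoxifen at an age of 10 to 13 weeks, 33 mg/kg/d for 5 days. The study describes hearts taken 5 days after tamoxifen injection. The Myh6 promoter drives Cre in cardiomyocytes only, so the other cells of the heart keep the gene, and a change of RNA per cell cannot be told apart from a change in the number of cells of a type in these whole-heart samples.

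Potassium channels set the resting potential of the cardiomyocyte and bring each action potential to its end. In the mouse ventricle the fast transient outward current, carried by Kv4 channels with the partner KChIP2, and slowly inactivating currents, among them that of Kv1.5, dominate repolarization, while the delayed rectifiers built on ERG1 and on Kv7.1 with minK are better known from the human heart. Inward rectifiers hold the resting potential, ATP-sensitive channels open when ATP falls, and two-pore channels give a background leak.

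The targeted gene was lower in the ac-CYB5R3-KO hearts. Cyb5r3 ranged from 81.9 to 185 CPM (the count scaled to library size with the TMM factors of edgeR) in ac-WT hearts with a median of 121, and from 42.0 to 67.4 with a median of 52.7 in ac-CYB5R3-KO hearts, so the groups did not overlap (log2 fold change -1.22 ± 0.19 SE, adjusted p = 0.0450, edgeR quasi-likelihood test). Libraries held 43393183 to 53754284 counts. The ac-WT hearts 2 and 3 stood apart from the other 10 libraries, with TMM scaling factors of 0.570 and 0.723 against 0.988 to 1.22 elsewhere. Their summed levels of 8 cardiomyocyte markers were 46073 and 36732 CPM against 19621 to 23450 in the other ac-WT hearts and 14972 to 24834 in the ac-CYB5R3-KO hearts, none of the 8 was at 0, and their summed levels of 5 fibroblast markers were 856 and 842 CPM against 2130 to 3453 in all others. Their 5 cartilage or airway markers summed to 7.13 and 7.41 CPM against 25.8 to 54.8 in the other ac-WT and 49.0 to 111 CPM in the ac-CYB5R3-KO hearts. Log2 fold changes without these 2 hearts are given beside those of the members named.

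Of the 95 potassium channel genes, 51 had enough counts to be tested, 44 did not, and 7 of those 44 had no count in any heart (Kcna10, Kcnh5, Kcnj13, Kcnk16, Kcnk18, Kcns2 and Kcnv1). The tested genes comprised 21 of 45 delayed rectifier subunits, 8 of 13 inward rectifiers, 8 of 12 calcium- or sodium-activated subunits, 6 of 8 transient outward subunits, 5 of 14 two-pore channels and all 3 matched genes of the ATP-sensitive (KATP) channel. Kcnj11, the Kir6.2 pore of that channel, was not analysed here because its identifier was not matched.

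A small number of genes made up most of the potassium channel RNA of the control heart. Levels between genes were compared as CPM per kilobase of exon. Kcng2, the silent subunit Kv6.2, came out highest at 93.7 ± 15.6 (SD, n = 6), but its annotated model is a single exon of 705 bases against a gene span of 69711 bases in RefSeq, so that its level per length is not comparable with the rest and is left out of the shares that follow. Kcnk3, which encodes the two-pore channel TASK1, was then highest at 30.0 ± 11.8 CPM per kilobase (SD, n = 6) in ac-WT hearts. Kcnip2, which encodes KChIP2, followed at 15.7 ± 11.0. Kcnq1, the Kv7.1 pore, had 7.49 ± 1.07, Kcna5, the Kv1.5 pore, 7.18 ± 2.89, Abcc9, the sulfonylurea receptor SUR2, 6.44 ± 2.65, Kcnh2, the ERG1 pore, 6.299 ± 3.35, and Kcnj8, the Kir6.1 pore, 5.77 ± 1.38. The order among those 5 genes was not resolved, since their ranges over the 6 hearts overlapped.

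The 5 highest genes together held 56.0% ± 4.52 (SD, n = 6) of the potassium channel level in ac-WT hearts and the 10 highest 76.2% ± 4.68. In ac-CYB5R3-KO hearts the same 5 held 50.2% ± 2.81. Grouped by current, delayed rectifier subunits held 29.4% ± 3.27 of the level in ac-WT hearts, two-pore channels 28.9% ± 4.56, transient outward subunits 14.4% ± 5.46, KATP subunits 13.8% ± 1.72, inward rectifiers 10.16% ± 1.35 and calcium- or sodium-activated subunits 3.34% ± 0.48. The transient outward share varied most among control hearts, from 5.88% to 20.4%. In ac-CYB5R3-KO hearts it was 10.6% ± 2.72 and the inward rectifier share was 13.3% ± 1.45, from 11.14% to 15.4% against 8.57% to 11.9% in ac-WT hearts, while the delayed rectifier (29.6% ± 1.62), two-pore (28.6% ± 3.48) and KATP (13.8% ± 1.81) shares lay within 1 SD of their ac-WT values. The calcium- or sodium-activated share was 4.02% ± 0.32, from 3.66% to 4.45% against 2.54% to 3.83%. These shares were not tested.

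**Figure D1:**
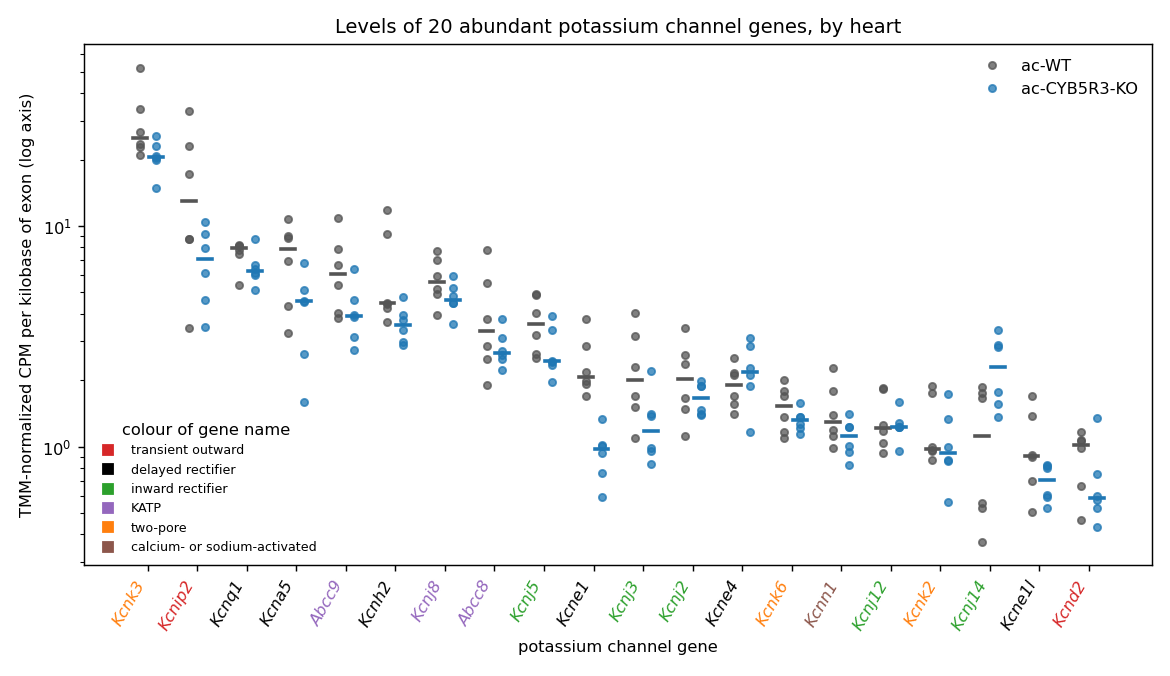
Level of 20 abundant potassium channel genes, as TMM-normalized CPM per kilobase of exon on a log axis. Each point is 1 heart (6 ac-WT in grey, 6 ac-CYB5R3-KO in blue), bars mark medians, and the colour of a gene name gives its current. Kcnk3 was highest in both groups, and the ac-WT points of Kcnip2 spread from 3.44 to 33.02.

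Across the family, levels in ac-CYB5R3-KO hearts lay below those in ac-WT hearts more often than above. Of the 51 tested genes 38 were lower and 13 higher, where 51.2% of all 17847 genes tested were lower. At an unadjusted p below 0.05 there were 13 lower and 4 higher members, against 9.73% and 4.91% of all genes (14.6% together), and at p below 0.01 there were 4 lower and 1 higher, against 3.27% and 1.33% (4.59% together). The median log2 fold change was -0.30 over the members and -0.0074 over all genes.

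The excess of lower members was smaller without the ac-WT hearts 2 and 3. Heart 3 had the highest ac-WT level for 19 of the 51 members and heart 2 for 13, where they had it for 21.6% and 24.1% of all genes. Without both, the median of the members was -0.14, 34 of 54 tested members were lower, and at p below 0.01 there were 2 lower (Kcne1 and Kcne1l) and 2 higher (Kcnq3 and Kcns1), where 2.33% of all genes in that fit passed in either direction. Scaling libraries by total counts raised all genes together, with the median of all genes at 0.26 and that of the members at 0.0020 (25 of 51 lower), so the gap between the 2 medians remained and a change of sign under this scaling is read against 0.26. The part of the cardiomyocyte and fibroblast marker differences of hearts 2 and 3 in these values was not tested.

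After adjustment over all genes 1 member passed 0.05, Kcne1, where 0.101% of all genes did (18 of 17847, 0.0616% lower and 0.0392% higher). The 2 groups of hearts did not overlap for Kcne1 (lower) and overlapped for the 50 others, where 1.04% of all genes lay apart with lower levels and 0.510% with higher levels in ac-CYB5R3-KO hearts. The median log2 fold change by current was -0.52 for KATP, -0.39 for delayed rectifier and -0.33 for transient outward subunits. It was -0.20 for two-pore, -0.14 for inward rectifier and -0.11 for calcium- or sodium-activated subunits. These medians include ac-WT hearts 2 and 3 and were not computed without them. Without those hearts the KATP genes were at -0.35 (Abcc9), -0.13 (Kcnj8) and 0.04 (Abcc8). Of the two-pore genes Kcnk3 moved up to -0.16, and Kcnk2, Kcnk5, Kcnk6 and Kcnk13 moved down to -0.39, -0.22, -0.36 and -0.30. Of the inward rectifiers Kcnj2 (0.02) and Kcnj12 (0.20) turned positive, and the others kept their sign.

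**Figure D2:**
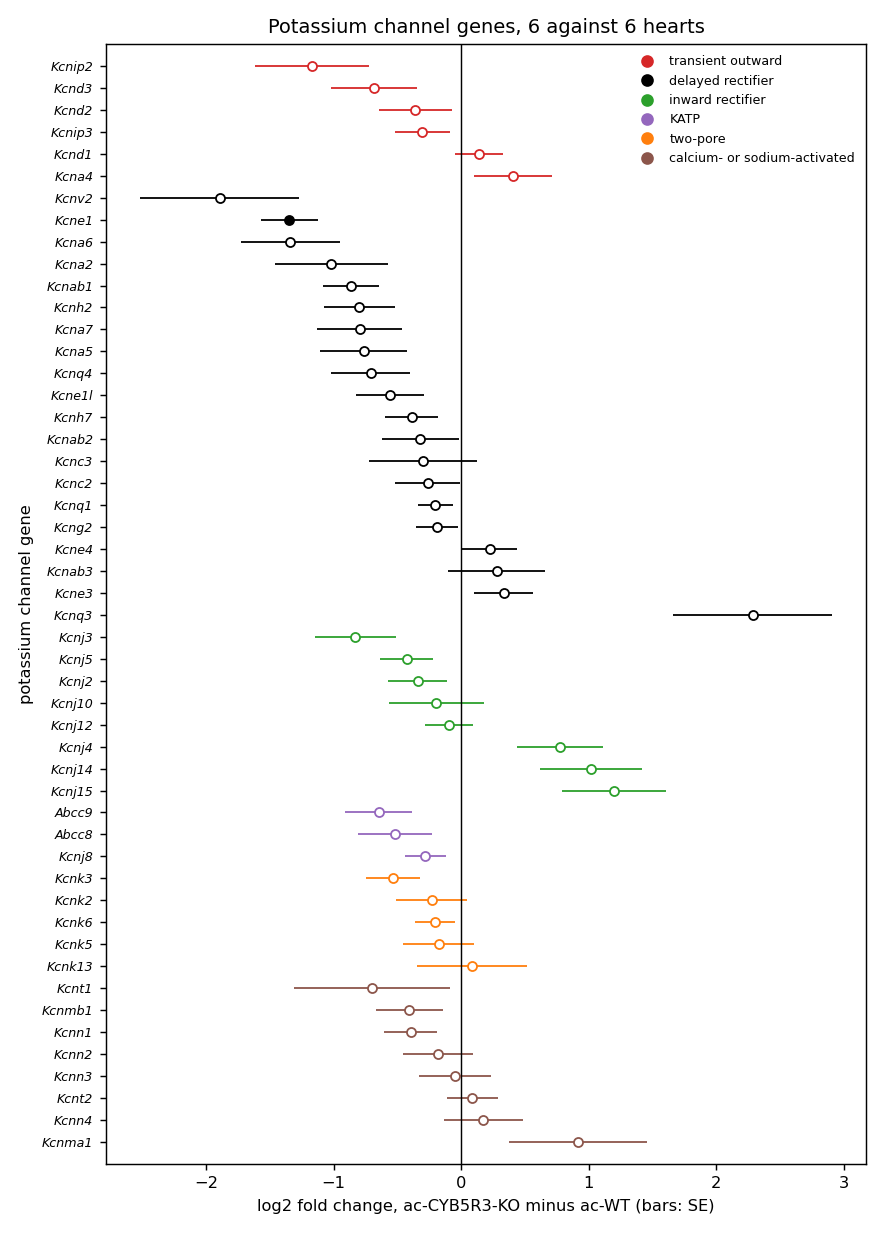
Log2 fold change (ac-CYB5R3-KO minus ac-WT) of 50 tested potassium channel genes, ordered by current, with bars for the SE. The filled point, Kcne1, is the one with an adjusted p below 0.05, and 37 of the 50 points lie left of 0.

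Kcne1 was the clearest difference in the family. It encodes minK, the single-span partner that slows the gating of Kv7.1, and in the adult mouse heart its expression is known mainly from the conduction system. The gene lies on chromosome 16 at 92346246 to 92359713, minus strand, in the NCBIM37 build. Kcne1 ranged from 5.43 to 12.12 CPM with a median of 6.62 in ac-WT hearts and from 1.89 to 4.27 with a median of 3.12 in ac-CYB5R3-KO hearts. The lowest control heart thus stood above the highest knockout heart. The raw counts were apart too, 288 to 366 in ac-WT and 95 to 227 in ac-CYB5R3-KO libraries, so that the difference is visible before any scaling. Kcne1 fell by 1.35 on the log2 scale (SE 0.23, adjusted p = 0.0476, edgeR), to a mean of 39.2% of the ac-WT mean.

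The Kcne1 difference kept its direction in every alternative run (log2 fold change -1.47 to -0.99), but its adjusted p sat at the threshold. Without ac-WT hearts 2 and 3 the log2 fold change was -1.03 with an unadjusted p of 0.000147 and an adjusted p of 0.101 in edgeR. Leaving out any 1 heart gave -1.47 to -1.16 with adjusted p from 0.0363 to 0.158, below 0.05 only without ac-WT heart 1 or 4, and over all alternatives the adjusted p ran from 2.2e-05 (DESeq2) to 0.158. Of 6 nodal markers 5 were tested and Isl1 was at 0; Tbx3, a transcription factor of the conduction system, was lower in ac-CYB5R3-KO hearts (4.55, 6.91 and 9.61 CPM as lowest, median and highest in ac-WT against 3.196, 3.64 and 4.36, log2 fold change -0.92 ± 0.20 SE, unadjusted p = 0.000465, adjusted p = 0.141, edgeR). The summed level of the nodal list was 13.1 to 17.5 CPM in ac-WT and 10.7 to 13.4 CPM in ac-CYB5R3-KO hearts, and its part in the Kcne1 difference was not tested.

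Kcnq1, the pore that minK attaches to, had a smaller log2 fold change. It ranged from 16.6 to 25.2 CPM (median 24.4) in ac-WT hearts and from 15.8 to 26.9 (median 19.4) in ac-CYB5R3-KO hearts, with a log2 fold change of -0.20 ± 0.13 SE and an adjusted p of 0.498 in edgeR, and -0.14 without ac-WT hearts 2 and 3. The difference between the 2 genes was not tested. Kcnq1 contains the antisense transcript Kcnq1ot1, and the sources used here do not state whether reads were counted by strand.

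Kcnh2, the ERG1 pore of the rapid delayed rectifier, ranged from 17.8 to 57.0 CPM (median 21.6) in ac-WT hearts and from 14.02 to 23.1 (median 17.2) in ac-CYB5R3-KO hearts. The high end came from ac-WT hearts 3 and 2, with 57.0 and 44.6 CPM, and the other 4 control hearts lay within the range of the knockout hearts. Its log2 fold change was -0.80 ± 0.28 SE (unadjusted p = 0.0126, adjusted p = 0.230, edgeR) and -0.20 (unadjusted p = 0.172) without those 2 hearts.

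Kcna5, the Kv1.5 pore, ranged from 9.83 to 32.2 CPM (median 23.7) in ac-WT and from 4.80 to 20.4 (median 13.7) in ac-CYB5R3-KO hearts (log2 fold change -0.77 ± 0.34 SE, adjusted p = 0.321, edgeR, and -0.46 without ac-WT hearts 2 and 3). Kcng2, a silent subunit with no current of its own, had 50.4 to 81.5 CPM against 37.5 to 79.2, with a log2 fold change of -0.19 ± 0.17 SE, and -0.06 without those hearts.

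**Figure D3:**
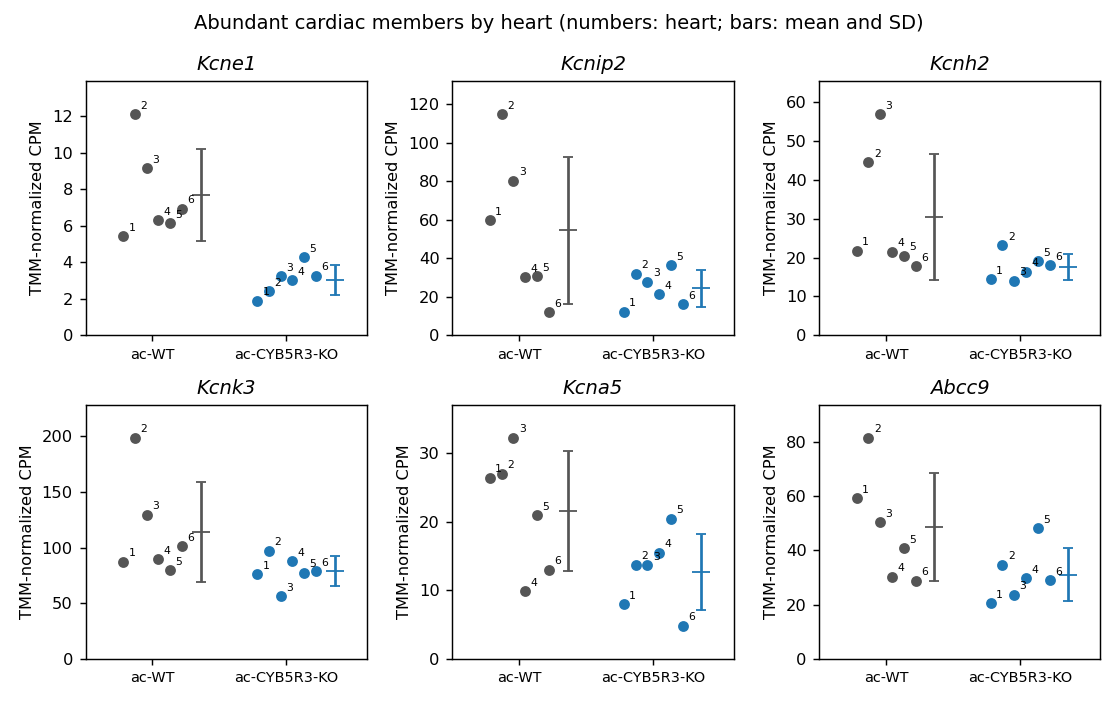
TMM-normalized CPM of Kcne1, Kcnip2, Kcnh2, Kcnk3, Kcna5 and Abcc9 in every heart, numbered within its group, with the mean and SD beside the points. Only the Kcne1 panel shows groups that do not overlap, and ac-WT hearts 2 and 3 give the 2 highest control points of Kcne1, Kcnip2, Kcnh2, Kcnk3 and Kcna5.

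Kcnip2 and the Kv4 pores, which together form the fast transient outward channel, varied more between control hearts than between the groups. Kcnip2 ranged from 11.97 to 115 CPM (median 45.0) in ac-WT hearts and from 12.08 to 36.4 (median 24.5) in ac-CYB5R3-KO hearts, and ac-WT hearts 2 and 3 were the 2 highest of the 12. Its log2 fold change was -1.17 ± 0.45 SE (unadjusted p = 0.0210, adjusted p = 0.261, edgeR) and -0.43 (unadjusted p = 0.286) without those hearts. Kcnd3, the Kv4.3 pore, ranged from 2.97 to 15.8 CPM against 3.61 to 5.14, with a log2 fold change of -0.68 ± 0.34 SE that became -0.07 without them. Kcnd2, the Kv4.2 pore, ranged from 2.41 to 6.03 CPM against 2.22 to 6.91 (-0.36 ± 0.28 SE, and -0.25 without them). Kcna4, the Kv1.4 pore of the slow transient outward current, was at 0.389 to 1.03 CPM against 0.432 to 1.47 (0.41 ± 0.31 SE, adjusted p = 0.550, edgeR, and 0.41 without them).

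Ratios of 2 counts within a heart need no library scaling, and 4 of them were compared. The log2 ratio of Kcnip2 to Kcnd2 was 3.26 ± 0.97 (SD, n = 6) in ac-WT hearts against 2.74 ± 0.53 in the knockout hearts (exact permutation test, two-sided, p = 0.264). That difference of -0.52 became -0.06 without ac-WT hearts 2 and 3 (exact permutation p = 0.895). The log2 ratio of Kcnd2 to Kcnd3 was -0.42 ± 0.94 against -0.37 ± 0.67 (exact permutation p = 0.918). Kcnj2 to Kcnj12, the Kir2.1 and Kir2.2 pores, gave 1.58 ± 0.50 against 1.39 ± 0.35 (exact permutation p = 0.463), and Abcc9 to Abcc8, the SUR2 and SUR1 receptors, gave 1.34 ± 0.52 against 1.12 ± 0.28 (exact permutation p = 0.377, and 0.0390 without ac-WT heart 3, where the difference was -0.42). No ratio differed by more than its spread between hearts with all 12, and adjusted over the 4 ratios the exact permutation p-values were 0.618 to 0.918.

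Among inward rectifiers the members split by direction. Kcnj3, the GIRK1 subunit of the acetylcholine-activated channel, ranged from 5.68 to 21.1 CPM (median 10.4) in ac-WT and from 4.35 to 11.5 (median 6.15) in ac-CYB5R3-KO hearts (log2 fold change -0.83 ± 0.32 SE, unadjusted p = 0.0203, adjusted p = 0.258, edgeR). Without ac-WT hearts 2 and 3 the Kcnj3 value was -0.34 (unadjusted p = 0.240), and 31.1% of its exon bases overlap the antisense gene Gm17595. Kcnj5, its partner GIRK4, was at 11.33 to 22.03 CPM against 8.85 to 17.6 (-0.43 ± 0.21 SE, adjusted p = 0.361, edgeR, and -0.16 without those hearts). Kcnj2 and Kcnj12, which carry the strong inward rectifier current that holds the resting potential, had log2 fold changes of -0.34 ± 0.23 SE and -0.10 ± 0.19 SE, and both turned positive without ac-WT hearts 2 and 3 (0.02 and 0.20).

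A further 3 inward rectifiers, chosen after their values were seen, pointed the other way. Kcnj15, the Kir4.2 pore, ranged from 1.22 to 9.60 CPM (median 4.39) in ac-WT hearts and from 6.98 to 16.8 (median 9.13) in ac-CYB5R3-KO hearts, with a log2 fold change of 1.199 ± 0.41 SE (unadjusted p = 0.0108, adjusted p = 0.221, edgeR). Kcnj14, the Kir2.4 pore, ranged from 0.978 to 4.90 CPM (median 2.94) against 3.58 to 8.88 (median 6.06), with 1.02 ± 0.40 SE (unadjusted p = 0.0231, adjusted p = 0.267, edgeR). Kcnj4, the Kir2.3 pore, had 0.0555 to 0.622 CPM against 0.564 to 0.784 (0.78 ± 0.34 SE, unadjusted p = 0.0373, edgeR). Control heart 2 was the lowest for Kcnj15 and Kcnj14, and without hearts 2 and 3 the 3 log2 fold changes were 0.80, 0.68 and 0.55, with unadjusted p of 0.0151, 0.0762 and 0.0304.

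The 3 KATP genes had lower medians in ac-CYB5R3-KO hearts with overlapping groups. Abcc9 ranged from 28.8 to 81.5 CPM (median 45.5) in ac-WT and from 20.6 to 48.1 (median 29.4) in ac-CYB5R3-KO hearts (log2 fold change -0.64 ± 0.26 SE, unadjusted p = 0.0282, adjusted p = 0.277, edgeR, and -0.35 without ac-WT hearts 2 and 3). Abcc8 ranged from 9.42 to 38.4 CPM against 11.0 to 18.7 (-0.52 ± 0.29 SE, adjusted p = 0.424) and Kcnj8, the Kir6.1 pore, from 8.61 to 16.8 against 7.89 to 13.0 (-0.28 ± 0.16 SE, adjusted p = 0.442, edgeR). Without ac-WT hearts 2 and 3 Abcc8 turned to 0.04 and Kcnj8 was at -0.13. Abcc9 and Kcnj8 are known also from vascular smooth muscle, where 4 of the 7 tested markers were lower and 3 higher. At an unadjusted p below 0.01, 2 of the 7 were lower (Acta2 with a log2 fold change of -0.89 and Myh11 with -0.93) and 0 higher, against 3.27% and 1.33% of all genes, while Cnn1, chosen after its value was seen, had 1.04 (unadjusted p = 0.0262, edgeR). The summed level of that list was 416 to 570 CPM in ac-WT and 342 to 460 CPM in ac-CYB5R3-KO hearts. It was 521 and 570 CPM in ac-WT hearts 2 and 3 and 416 to 483 CPM in the other ac-WT hearts. The part of these markers in the KATP values was not tested.

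Kcnk3, the most abundant channel gene, ranged from 79.5 to 199 CPM (median 95.4) in ac-WT hearts and from 56.3 to 97.4 (median 78.3) in ac-CYB5R3-KO hearts, again with ac-WT hearts 2 and 3 on top. The log2 fold change was -0.53 ± 0.21 SE (unadjusted p = 0.0263, adjusted p = 0.272, edgeR) and -0.16 (unadjusted p = 0.252) without them. Kcnk6, the two-pore channel TWIK2, had 4.52 to 8.29 CPM against 4.73 to 6.52 (-0.20 ± 0.16 SE, and -0.36 with an unadjusted p of 0.0143 without those hearts, edgeR). Among the calcium-activated channels Kcnn1 (SK1) had a log2 fold change of -0.39 ± 0.21 SE (-0.07 without those hearts) and Kcnn3 (SK3) of -0.05 ± 0.28 SE (-0.14 without them). None of the 8 tested calcium- or sodium-activated subunits had an unadjusted p below 0.05 (edgeR), where 14.6% of all genes did.

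**Figure D4:**
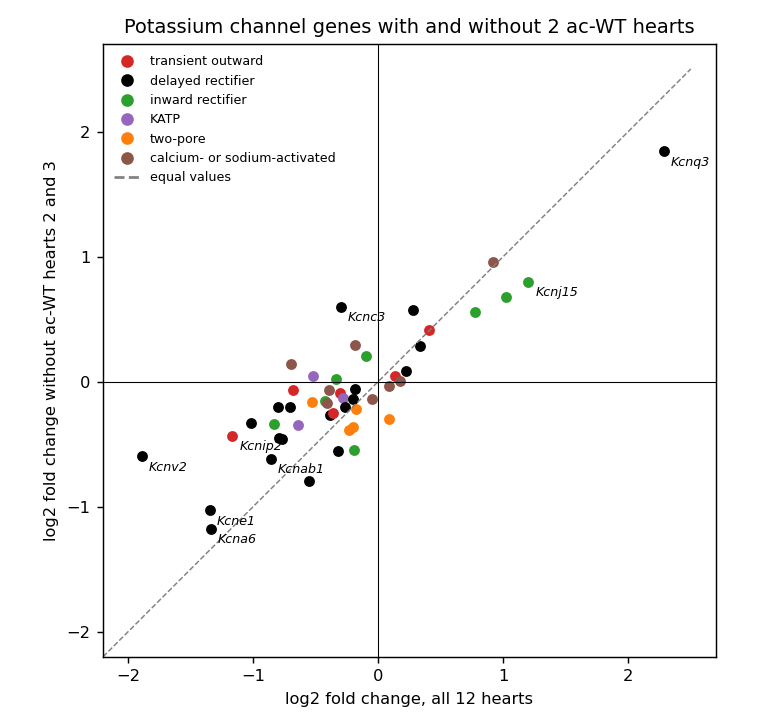
Log2 fold change of tested potassium channel genes in all 12 hearts (horizontal) against that without ac-WT hearts 2 and 3 (vertical), coloured by current, with the line of equal values dashed. Kcne1 and Kcna6 stay close to -1 or below on both axes, Kcnip2 moves from -1.17 to -0.43, and Kcnq3 stays above 1.8.

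The other members with an unadjusted p below 0.01 were scarce transcripts. Kcnab1, the Kv beta 1 accessory subunit, ranged from 0.588 to 1.25 CPM (median 0.872) in ac-WT hearts and from 0.392 to 0.601 (median 0.476) in ac-CYB5R3-KO hearts (log2 fold change -0.86 ± 0.22 SE, unadjusted p = 0.00158, adjusted p = 0.173, edgeR). Without ac-WT hearts 2 and 3 it was -0.62 (unadjusted p = 0.0132). Kcna6, the Kv1.6 pore, had 0.124 to 0.860 CPM (median 0.480) against 0.0940 to 0.258 (median 0.208), with -1.34 ± 0.39 SE (unadjusted p = 0.00395, adjusted p = 0.186, edgeR) and -1.18 without those hearts. The antisense gene Gm17456 overlaps 39.5% of the Kcna6 exon bases, and 6 to 40 reads per ac-WT library and 5 to 15 per ac-CYB5R3-KO library lie behind these values.

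Kcnv2, the silent subunit Kv8.2, was at 0.190 to 1.83 CPM (median 0.400) in ac-WT and 0.0814 to 0.451 (median 0.166) in ac-CYB5R3-KO hearts, with a log2 fold change of -1.89 ± 0.62 SE (unadjusted p = 0.00898, adjusted p = 0.211, edgeR). The highest control values of Kcnv2 were 1.83 and 1.57 CPM, heart 3 gave the first, and without hearts 2 and 3 the value was -0.60 (unadjusted p = 0.214). Kcnq3, the neuronal Kv7.3 pore, was the one member higher at p below 0.01. It had 32 reads over the 6 ac-WT libraries and 182 over the 6 ac-CYB5R3-KO libraries, with 0 to 0.228 CPM against 0.169 to 1.28 (log2 fold change 2.28 ± 0.62 SE, unadjusted p = 0.00259, adjusted p = 0.179, edgeR), and 1.84 without ac-WT hearts 2 and 3. In DESeq2, where 437 of all genes passed 0.05, the adjusted p of Kcnq3 was 0.0207. Of 10 neuron or glia markers 6 were tested, and none of the 10 was at 0. At an unadjusted p below 0.05 (edgeR), 2 of the 6 were lower and 0 higher, against 9.73% and 4.91% of all genes. The summed level of that list was 17.5 to 32.7 CPM in ac-WT and 15.6 to 47.5 CPM in ac-CYB5R3-KO hearts, and its part in the Kcnq3 value was not tested.

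**Figure D5:**
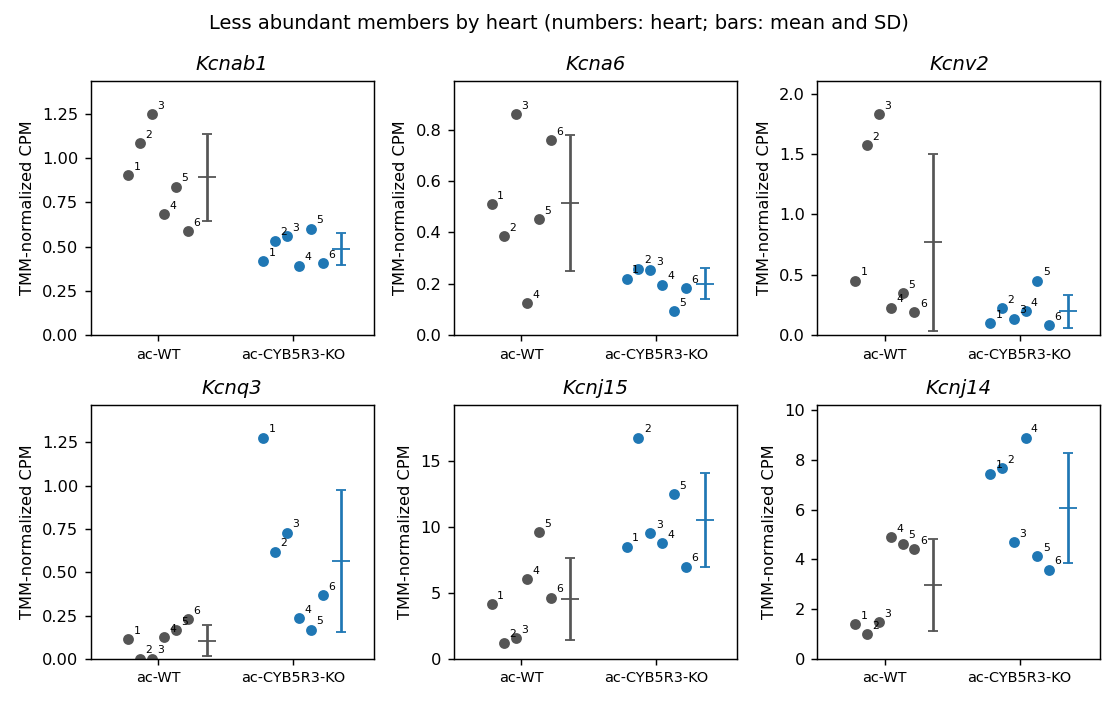
TMM-normalized CPM of Kcnab1, Kcna6, Kcnv2, Kcnq3, Kcnj15 and Kcnj14 in every heart, numbered within its group, with the mean and SD beside the points. The first 3 have lower and the last 3 higher means in ac-CYB5R3-KO hearts, and all 6 panels show groups that overlap.

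Below the filter, 2 genes chosen after their values were seen differed in summed reads. Kcnip1, the KChIP1 partner of Kv4 channels, had 51 reads over the ac-WT libraries (4 to 12 each) and 11 over the ac-CYB5R3-KO libraries (1 to 3 each), and it was the one member besides Kcne1 to pass an adjusted p of 0.05 in a fit of all genes with a read. Kcns1, the silent subunit Kv9.1, had 14 reads (0 to 6 each) against 69 (8 to 17 each). Both lie near the depth at which single reads decide the level.

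Partners and regulators of these channels that carry other names were counted from a fixed list of 18 genes, 13 of which were tested. Of these 7 were lower and 6 higher, with a median log2 fold change of -0.0077, and none had an adjusted p below 0.05. At an unadjusted p below 0.05, 2 were lower and 1 higher, against 9.73% and 4.91% of all genes, and at p below 0.01, 0 were lower and 1 higher, against 3.27% and 1.33%.

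Promoter sequences in RefSeq (build GRCm38.p6, 250 bases before to 50 after the start) were held for 70 of the 95 members, not including Kcne1 and Kcnk3. Those of the 3 abundant voltage-gated subunits with an unadjusted p below 0.05 are shown, because they are the voltage-gated members with the most reads among those lower at that p, with the matches of the motifs searched in capitals. The Kcnip2 window is chr19:45816014-45816313, the Kcnh2 window chr5:24329542-24329841 and the Kcna5 window chr6:126535506-126535805, all on the minus strand.
Kcnip2: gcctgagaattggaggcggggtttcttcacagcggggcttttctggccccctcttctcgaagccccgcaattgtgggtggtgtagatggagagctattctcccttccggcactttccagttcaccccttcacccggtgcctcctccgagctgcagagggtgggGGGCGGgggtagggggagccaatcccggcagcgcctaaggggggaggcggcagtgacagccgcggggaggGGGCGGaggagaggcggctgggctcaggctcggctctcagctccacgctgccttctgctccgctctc
Kcnh2: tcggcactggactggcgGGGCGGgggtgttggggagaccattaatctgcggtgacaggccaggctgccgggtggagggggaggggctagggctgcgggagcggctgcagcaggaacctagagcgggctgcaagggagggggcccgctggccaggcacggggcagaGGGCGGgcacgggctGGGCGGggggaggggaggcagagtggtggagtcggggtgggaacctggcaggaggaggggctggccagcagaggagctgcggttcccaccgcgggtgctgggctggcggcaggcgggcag
Kcna5: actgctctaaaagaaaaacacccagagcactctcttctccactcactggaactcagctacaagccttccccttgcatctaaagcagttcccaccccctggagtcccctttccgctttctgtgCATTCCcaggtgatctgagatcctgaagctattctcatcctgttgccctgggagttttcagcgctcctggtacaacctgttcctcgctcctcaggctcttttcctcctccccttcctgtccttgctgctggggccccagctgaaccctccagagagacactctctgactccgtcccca
The capitals mark GGGCGG, the GC box, at 2 places in Kcnip2 (bases -87 to -82 and -17 to -12 from the start) and 3 in Kcnh2, and CATTCC, the TEAD site, at 1 place in Kcna5 (-128 to -123). Both strands were searched for these and for TATAAA, the TATA box, AGATAA, the GATA site, AAGGTCA, the site of estrogen-related receptors, and the MEF2 core, which had no match in the 3 windows. GGGCGG lay in 35.7% of all 32851 promoter windows and in 48.4% of the 95 windows of those 70 members, and CATTCC in 14.7% and 15.8%. The Kcnip2 and Kcnh2 windows were 67.0% and 74.3% G or C, the Kcna5 window 55.0%, and the median was 58.0% over the windows of members and 52.7% over all windows.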

How the data were processed

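RNA of 12 hearts (6 ac-WT, 6 ac-CYB5R3-KO) was sequenced by the authors as 75-base unpaired reads with a stranded total RNA kit. The authors trimmed the reads and deposited raw counts of reads per Ensembl gene. The study's methods name STAR and the mm9 build, while the submitters' processing notes name STAR, featureCounts and GRCm39; the strand setting and the annotation release are not given in the sources used here. Totals were 43393183 to 53754284 counts per library, and precision at low counts is limited by counting.

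Counts were fitted with edgeR 4.0.16 (R 4.3.3; quasi-likelihood test, TMM factors, filterByExpr with a minimum count of 10) over 17847 genes, and p-values were adjusted by Benjamini-Hochberg over all of them. The script was tested on simulated data. Symbols came from a gene name table (31027 identifiers matched) and exon lengths from GENCODE for NCBIM37. Levels per length divide CPM by the union of exons, and gene coordinates are from that annotation. DESeq2 1.42.0, other scalings, filters, a replicate block, leaving out ac-WT hearts 2 and 3 and leaving out each heart were the alternatives. Ratios of counts (0.5 added) were compared by exact permutation over the 924 placements of 12 hearts, adjusted over 4 ratios. The ratio of Kcnj11 to Kcnj8 was listed too and was not run.

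Named genes were a core cardiac list, the 2 highest genes per length of each current, and every tested member with an unadjusted p below 0.01; others are named as chosen after their values were seen. The members, the currents, the partner list, the marker lists and the motifs were chosen with earlier results of these data known. The marker lists gave, of those tested, 6 of 8 cardiomyocyte, 2 of 3 atrial, 2 of 5 nodal, 4 of 7 smooth muscle or pericyte, 4 of 5 endothelial, 2 of 5 fibroblast, 3 of 4 macrophage, 3 of 6 neuron or glia, 0 of 4 red blood cell, 1 of 2 skeletal muscle and 0 of 4 cartilage or airway genes lower in ac-CYB5R3-KO hearts, and none passed an adjusted p of 0.05. A few items are counted in the totals and not reported here by name. The p-values measure the spread between these mice.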

Additional observations from a re-analysis of the deposited data

Results flagged for a closer look

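Each of 56 groups of 6 hearts (24 named genes and 4 ratios, 2 groups each) was examined for a heart far from the others, and 4 were found, where chance gives about 1 in 20. Kcnd2 in ac-CYB5R3-KO heart 2 was at 6.91 CPM, with the next heart at 3.85 and the lowest at 2.22. Kcnn3 in ac-CYB5R3-KO heart 5 was at 2.80 CPM, with the next at 1.53 and the lowest at 0.977. Kcnq1 in ac-WT heart 1 was at 16.6 CPM, below the 22.97 to 25.2 CPM of the other 5 control hearts. The log2 ratio of Abcc9 to Abcc8 in ac-CYB5R3-KO heart 5 was 1.64, with the next heart at 1.16 and the lowest at 0.90. In each case the heart's gap to its neighbour exceeded 0.625 of the range of its group, the limit of Dixon's test for 6 values.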

How the results depend on the processing

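The number of genes with an adjusted p below 0.05 was 18 of all genes and 1 of the members. It was 437 and 3 with DESeq2 (Kcne1, Kcnab1 and Kcnq3), and 8 and 0 with total counts and with DESeq2 size factors in edgeR. It was 35 and 2 without a filter, and 7 and 0 without ac-WT hearts 2 and 3. Leaving out 1 heart gave 2 to 38 of all genes and 0 to 1 member, the most without ac-WT heart 4. Members lower at p below 0.01 numbered 4, and 6 with DESeq2 and without a filter, 1 with total counts, 2 with at least 10 counts in every library, 2 without hearts 2 and 3 and 2 to 7 with 1 heart out. Members higher numbered 1, and 2 with DESeq2, 4 without a filter, 0 with at least 10 counts in every library, 2 without hearts 2 and 3 and 1 to 3 with 1 heart out. In either direction 4.59% of all genes passed p below 0.01, and 6.94% with DESeq2, 3.299% without a filter, 2.39% with total counts, 4.76% with at least 10 counts in every library and 2.33% without hearts 2 and 3. The member median was -0.30, and 0.0020 with total counts (all genes 0.26), -0.14 without hearts 2 and 3 and -0.32 to -0.26 with 1 heart out. Fewer hearts leave fewer degrees of freedom; the cause of the other changes was not tested.

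Some directions turned. With total counts, which raised the median of all genes to 0.26 and so moves negative values up by construction, these were Kcng2 (0.10), Kcnj12 (0.24), Kcnj2 (0.0317), Kcnj8 (0.0342), Kcnk6 (0.0020), Kcnn3 (0.19) and Kcnq1 (0.0649). Without ac-WT hearts 2 and 3 they were Abcc8 (0.0437), Kcnj12 (0.20) and Kcnj2 (0.0187), and the ratio of Kcnd2 to Kcnd3 (-0.28). With 1 heart out Kcnj12 ran from -0.18 to 0.0249 (turned without ac-WT heart 2 or 3), Kcnn3 from -0.30 to 0.0946 (turned without 4 of 12 hearts, 0.09, 0.05, 0.06 and 0.03), and the differences in log2 ratio from -0.19 to 0.32 for Kcnd2 to Kcnd3, from -0.42 to -0.15 for Abcc9 to Abcc8, from -0.81 to -0.29 for Kcnip2 to Kcnd2 and from -0.34 to -0.04 for Kcnj2 to Kcnj12.

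Replicate numbers recur in both groups but name different animals. Deviations of same-numbered hearts correlated at -0.081 to 0.35 (mean 0.14, against -0.028 for other pairs), so the numbers were not taken to pair the hearts. With the replicate block, 2 of all genes and 0 members passed the adjusted threshold, 3 members were lower at p below 0.01 and 0 higher, where 3.77% of all genes passed in either direction. The 12 fits that leave out 1 heart kept the Kcne1 direction. The ratio of Kcnj11 to Kcnj8 was not run.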
